A study of Ovis aries and Bos taurus with 10 samples.

Results

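The genes described here encode the subunits of the proteasome and enzymes that attach ubiquitin to proteins or remove it, and they were measured in sheep oocytes and granulosa cells (GC) captured by laser from early follicles. They were chosen by the gene symbol of the array's annotation. Symbols PSMA to PSMG followed by a digit are the proteasome genes, UBE2 the ubiquitin-conjugating enzymes without UBE2C, USP with a digit the ubiquitin-specific proteases, and RNF with a digit the RING finger proteins without RNF2. The rule found 131 of the 9155 gene symbols on the array, with 174 of its 24016 probe sets. Of a gene's probe sets, the one with the highest mean log2 signal over the 6 captured arrays was used. The 131 genes were 39 proteasome genes, 25 UBE2 genes, 27 USP genes, 39 RNF genes and PSME3IP1, which encodes a protein that binds the activator PSME3 and is no subunit itself.

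The study hybridised 10 Affymetrix Bovine Genome Arrays, all with single samples. Of these, 6 held laser-captured cells of newborn lambs, aged under 1 day: oocytes of primordial (PDO), primary (PMO) and secondary (SECO) follicles, and GC of primordial (PDG), primary (PMG) and secondary (SECG) follicles. In primordial follicles a few flat GC surround the oocyte, in primary follicles the GC form 1 cuboidal layer, and in secondary follicles they form a further layer. The cells of each captured sample were a pool from different lambs, and their RNA was amplified in 2 rounds and labelled with the biotin turbo kit. The other 4 arrays held whole fetal ovaries. Ovine ovary of 132 days post coitum was hybridised once after each of 3 labelling protocols: P2, with 2 rounds of amplification and the Affymetrix label, P3, labelled like the captured cells, and P1, the standard protocol with 1 round. Bovine ovary of 8 months post coitum was labelled by P1. Each compartment was thus measured on 3 arrays of different stages and no array had a replicate. The standard errors and p values below come from limma, which moderates each gene's variance toward a value shared by all probe sets tested. The gene's own part reflects how far oocyte minus GC varied from stage to stage, and stage differences between compartments, with 2 degrees of freedom. The shared part had 5.43. Neither part measures the spread between animals.

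Ubiquitin is passed from an activating enzyme (E1) to a conjugating enzyme (E2), and a ligase (E3), in many cases a RING finger protein, brings the E2 to the protein that is to be marked. Chains of ubiquitin send the protein to the proteasome, where the 19S particle binds and unfolds it and the 20S barrel cuts it into peptides. Ubiquitin-specific proteases take ubiquitin off again. In oocytes this system is known for removing cyclins and other regulators as meiosis is resumed, and for clearing maternal proteins after fertilization.

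The deposited values are signals on a linear scale, and the authors had brought every array to a trimmed mean of 100. Differences are given as log2 of the signal plus 20, and a probe set was taken as detected on an array when its signal reached a limit that lay between 45.8 (PDG) and 74.2 (PMO) on the captured arrays and between 28.9 and 44.7 on the ovary arrays. Signals of different probe sets cannot be compared as amounts of RNA, since their probes differ and the ovine sequence can differ from the bovine one. The labelled compartments were only partly separated on the arrays. Of 10 oocyte markers on the array, 8 to 9 were detected on the oocyte arrays and 8 on each GC array, and their summed signal was 3225 to 8499 in oocytes and 3302 to 6078 in GC. Of 11 GC markers, 2 to 3 were detected on the oocyte arrays and 3 to 5 on the GC arrays, with sums of 357 to 533 in oocytes and 419 to 2337 in GC, and AMH, KITLG, FOXL2, FSHR and CYP19A1 were detected on no captured array. The summed signal of 7 stroma markers was 4429 to 15764 in oocytes and 12701 to 47110 in GC, and 2 of them were lower in oocytes at all 3 stages. That of 5 smooth muscle markers was 466 to 595 in oocytes and 1144 to 2429 in GC. SECO stood apart in the summed signal of 4 red blood cell markers, at 4460, against 67.8 to 796 on the other captured arrays. The paper's qPCR on captured samples found significant compartment differences for its oocyte and GC marker genes. It also reports that its array data bore out the compartment of KL (KITLG), GATA4, MAEL, MATER and GDF9. Its present calls and choice of probe sets differ from the rules used here. Whether the marker signals on the arrays came from admixed cells, and their part in the differences below, was not tested. Where samples are mixed, fewer cells of a type and less RNA per cell cannot be told apart.

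Most of the genes were detected in both compartments. Of the 131, 109 were detected on at least 1 captured array (83.2%, against 68.6% of all 9155 genes) and 75 on all 6 (57.3%, against 34.8% of all genes). All 13 genes of the 20S core that the rule found were detected on all 6 arrays. PSMA2, a further gene of the core, was not among the 131. Also detected on all 6 were 5 of 6 genes of the 19S ATPases, 6 of 10 of the other 19S genes, 13 of 25 UBE2 genes, 14 of 27 USP genes and 16 of 39 RNF genes. The 22 genes detected on no captured array were PSMD9, PSMD13, PSMG3, UBE2E1, UBE2L3, UBE2S, 5 USP genes and 11 RNF genes. Of these, USP37, USP50, RNF123, RNF144B, RNF157, RNF214 and RNF25 were detected on none of the 10 arrays. USP4, RNF216 and RNF43 were detected on an oocyte array and on no GC array, and PSMD5, UBE2W, USP18, USP20, USP21, USP53, RNF121 and RNF183 on a GC array and on no oocyte array. These lists depend on limits that differ between the arrays. USP20 had 66.4 on PMO, below the limit of 74.2 there, and 49.0 on PDG, above the limit of 45.8. The share of all genes detected in 1 compartment alone was not counted.

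**Figure D1:**
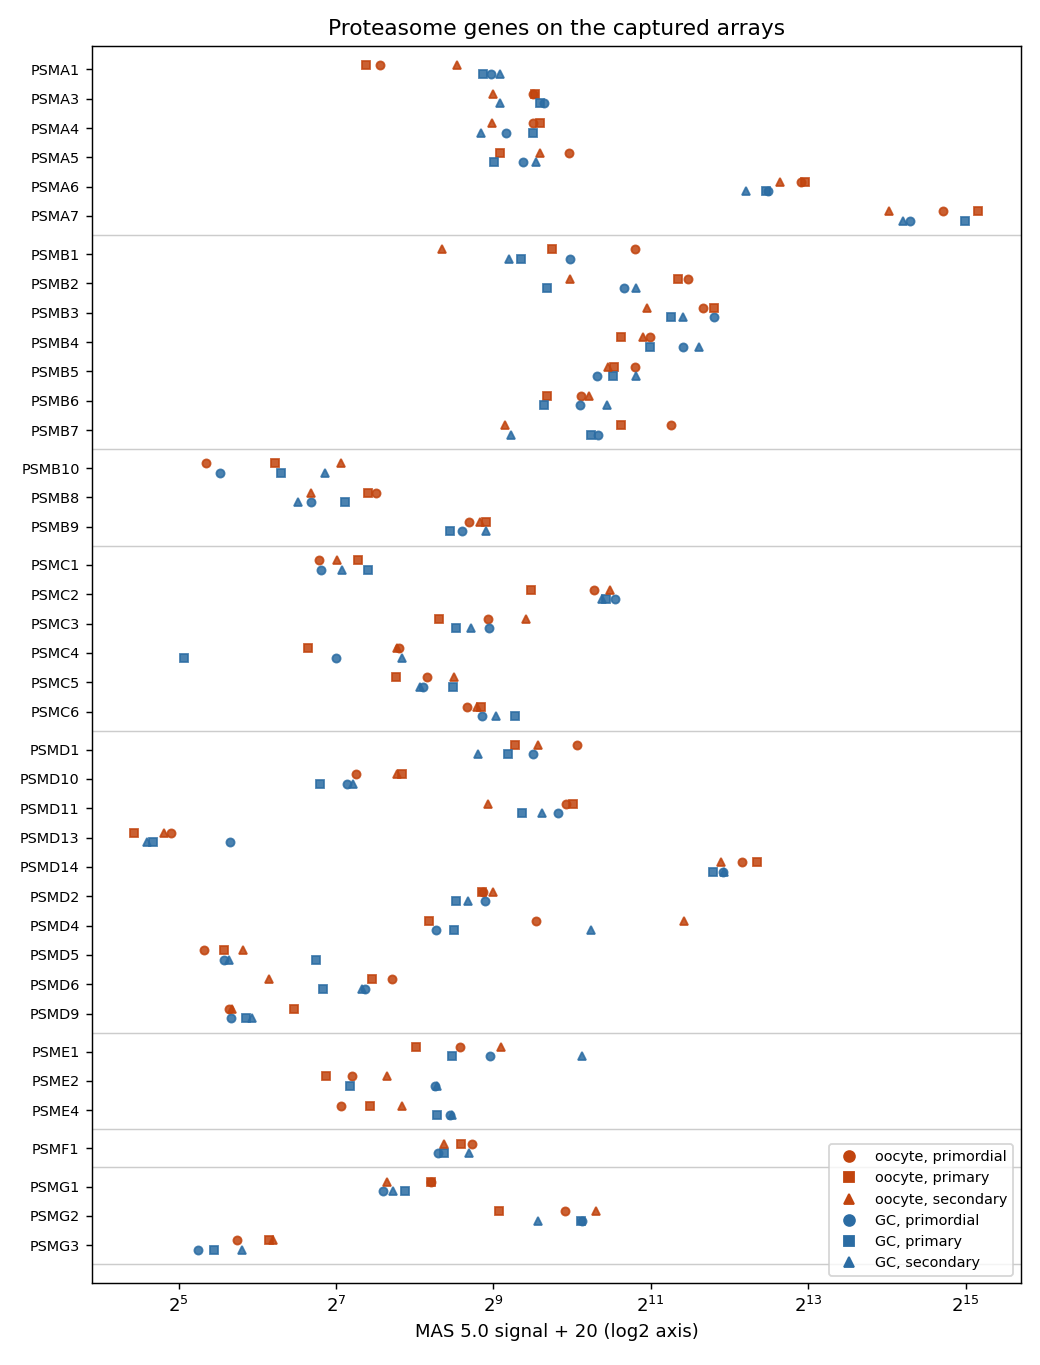
Signal plus 20 of the 39 proteasome genes on the 6 captured arrays, on a log2 axis. Each symbol is 1 array (oocytes red and above, GC blue and below, circle primordial, square primary, triangle secondary), and grey lines part the 20S alpha, 20S beta, immunoproteasome, 19S ATPase, other 19S, activator, inhibitor and chaperone genes. The compartments overlap for most genes, while in PSMA1, PSME4 and PSMC6 the oocyte arrays all lie below the GC arrays and in PSMA6 and PSMD10 above them. The share of all genes that separate in this way was not counted.

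The 20S core is a barrel of alpha rings, which gate the entry, and beta rings, which hold the cutting sites. Averaged over the stages, most of its genes had small differences between oocytes and GC. The median of oocyte minus GC was 0.13 over the 13 genes, against 0.05 over all genes, with 8 positive and 5 negative. By stage the median was 0.42 at the primordial, 0.09 at the primary and -0.22 at the secondary stage. Over all genes it was 0.04 at each stage. Over all genes, 3378 were positive and 2906 negative. PSMA7, whose mean log2 signal on the captured arrays was the highest of the 131 genes, had 26762, 36641 and 16705 on PDO, PMO and SECO, against 20015, 32534 and 18931 on PDG, PMG and SECG. The groups overlapped, and the difference was 0.14 ± 0.31 (standard error of the fit, as for all values given so below). PSMA6 had 7683, 7924 and 6353 in oocytes by stage, against 5734, 5631 and 4724 in GC (0.45 ± 0.30), and here every oocyte array lay above every GC array. PSMB3 overlapped between the groups, with 3237, 3548 and 1953 in oocytes, against 3539, 2428 and 2694 in GC. The subunits PSMB5 and PSMB6, which carry the chymotrypsin-like and the caspase-like site, differed by 0.04 ± 0.32 and -0.06 ± 0.30. PSMB7, with the trypsin-like site, differed by 0.41 ± 0.33, PSMA3 by -0.10, PSMA4 by 0.19, PSMA5 by 0.24 and PSMB1 by 0.13. The averages of PSMB1 and PSMB7 hide a change between stages. They were higher in oocytes at the primordial stage (0.83 and 0.92) and lower at the secondary stage (-0.85 and -0.07). PSMB2, at 0.55 ± 0.48, was higher in oocytes at the primordial and primary stages (0.82 and 1.67) and lower at the secondary stage (-0.83).

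PSMA1 was the core gene with the largest difference. This alpha subunit had 169, 147 and 353 on PDO, PMO and SECO, against 481, 448 and 522 on PDG, PMG and SECG. All 3 oocyte arrays lay below all 3 GC arrays, and oocyte minus GC was -1.14 ± 0.34 (limma adjusted p = 0.406, unadjusted p = 0.0106). The difference was -1.41 at the primordial, -1.48 at the primary and -0.54 at the secondary stage. PSMB4, a further core gene on the GC side, had 2021, 1559 and 1899 in oocytes, against 2710, 2016 and 3123 in GC (-0.50 ± 0.30), and its groups overlapped.

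In the 19S particle the ring of ATPases (PSMC genes) unfolds the substrate, and the remaining subunits (PSMD genes) bind and trim the ubiquitin chain. The 14 genes of the particle that were detected on a captured array had a median oocyte minus GC of 0.09, with 8 positive and 6 negative. PSMD14, the protease that takes the chain off at the particle, had 4572, 5206 and 3795 in oocytes, against 3834, 3517 and 3896 in GC, a small overlap at the secondary stage (0.26 ± 0.31). Of the ATPases, PSMC6 had 387, 441 and 422 in oocytes, against 443, 601 and 505 in GC, and each oocyte array lay just below each GC array (-0.29 ± 0.30). PSMC2 differed by -0.37, PSMC5 by -0.08, PSMC1 by -0.07 and PSMC3 by 0.16. PSMC4, at 0.77 ± 0.39, had 203, 79.9 and 199 in oocytes, against 108, 13.6 and 210 in GC and was not detected on PMG. The difference was 0.80 at the primordial, 1.57 at the primary and -0.07 at the secondary stage. PSMD1 (0.47), PSMD2 (0.21), PSMD11 (0.02) and PSMD6 (-0.08) showed no common direction. PSMD4 differed by 0.71 ± 0.40, with 1.27 at the primordial, -0.32 at the primary and 1.18 at the secondary stage. PSMD10, named as a subunit but known as a chaperone that helps to assemble the ATPase ring, had 133, 209.8 and 199.6 in oocytes, against 121, 91.2 and 128 in GC. Each oocyte array lay above each GC array, but the difference of 0.58 ± 0.33 was 0.34 without the primary stage. Of the other chaperones of the assembly, PSMG1 differed by 0.29 and PSMG2 by -0.17, while PSMG3, PSMD5 and PSMD9 were detected on no oocyte array and, apart from PSMD5 on PMG with 87.6, on no GC array.

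The 3 proteasome activators that the rule found, which cap the 20S barrel in place of the 19S particle, had lower signals in oocytes at each stage, without passing the test. PSME3 was not among them. PSME1 and PSME2 form the interferon-inducible PA28 ring, and PSME4 (PA200) acts in the nucleus and in spermatogenesis. PSME4 had 114, 153 and 209 on PDO, PMO and SECO, against 328, 292 and 336 on PDG, PMG and SECG, and the groups did not overlap (-0.96 ± 0.32, limma adjusted p = 0.413). PSME2 had 127, 97.5 and 181 in oocytes, against 285, 124 and 292 in GC, so that PDO and SECO lay above PMG, and PSME1 had 361, 239.8 and 526 in oocytes, against 479, 337 and 1097 in GC, again with PDO and SECO above PMG. Their differences were -0.66 ± 0.32 and -0.63 ± 0.32 with adjusted p values of 0.484 and 0.499 in limma. The difference was -0.46 for PSME2 without the primordial stage and -0.42 for PSME1 without the secondary stage. The inhibitor PSMF1 differed by 0.11 ± 0.32. The immunoproteasome subunits, which replace the cutting subunits after interferon, showed no such pattern: PSMB8 differed by 0.43 ± 0.32, PSMB9 by 0.16 and PSMB10 by -0.02.

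PSME3IP1 had 68.5, 18.2 and 3.51 on PDO, PMO and SECO, against 81.0, 78.3 and 51.2 on PDG, PMG and SECG. It was detected on 1 oocyte array and on all 3 GC arrays, and the difference was -1.05 ± 0.37 (adjusted p = 0.414, limma).

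The E2 enzymes held the genes with the largest differences on the oocyte side. UBE2G2, the E2 of protein degradation at the endoplasmic reticulum, had 142, 125 and 145 on PDO, PMO and SECO, against 70.3, 32.3 and 32.4 on PDG, PMG and SECG. It was detected on all 3 oocyte arrays and, of the GC arrays, on PDG alone, and the groups did not overlap. The difference was 1.32 ± 0.32, with the smallest p of the 109 genes tested (limma adjusted p = 0.406, unadjusted p = 0.00409). A further probe set of UBE2G2 was detected on no captured array, and the mean of both gave 0.60. UBE2J2, which sits in the membrane of the endoplasmic reticulum and acts in the same process, had 190.3, 115 and 328 in oocytes, against 33.7, 53.7 and 229 in GC. It was not detected on PDG and PMG, the groups overlapped, since SECG lay above PDO and PMO, and the difference of 1.11 ± 0.38 was 0.68 without the primordial stage. The related UBE2J1 differed by -0.17 ± 0.31.

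UBE2Q1 had 7132, 5515 and 4237 in oocytes, against 3400.4, 2789 and 2001 in GC by stage. All oocyte arrays lay above all GC arrays, and the differences of 1.06, 0.98 and 1.07 at the 3 stages were close to each other (1.04 ± 0.30, limma adjusted p = 0.406). UBE2D3, an E2 that works with many RING ligases, had 2599.5, 1832 and 1956 in oocytes, against 1309.9, 1181 and 1031 in GC, again without overlap (0.84 ± 0.30). Its close relative UBE2D2 differed by -0.13 ± 0.32, and probes of such near-identical genes can bind both transcripts, which was not tested. UBE2T, the E2 of the Fanconi anaemia pathway of DNA repair, had 72.7, 124 and 153 in oocytes, against 44.1, 21.2 and 75.5 in GC (1.07 ± 0.36, and 0.69 without the primary stage). Its groups overlapped, since SECG lay above PDO. Of the GC arrays it was detected on SECG alone, and its 21.2 on PMG was far below the limit of 72.1 there. UBE2F, an E2 for NEDD8, had 986, 1007 and 872 in oocytes, against 744, 485 and 745 in GC, without overlap (0.55 ± 0.32, and 0.31 without the primary stage).

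UBE2E3 had 1742, 1554 and 3222 in oocytes, against 2439, 2550.5 and 3869.6 in GC (-0.48 ± 0.31), lower in oocytes at each stage but with overlap between stages. UBE2N, which builds chains linked through lysine 63 together with UBE2V1 or UBE2V2, differed by 0.18 ± 0.30, UBE2V1 by 0.16 and UBE2V2 by 0.07. UBE2L3 and UBE2S, the chain-elongating E2 of the anaphase-promoting complex, were detected on no captured array, with signals up to 32.4 and 28.6. UBE2A, the relative of yeast Rad6 that marks histone H2B, had 609, 233 and 441 in oocytes, against 286, 291 and 145 in GC and was higher in oocytes at the primordial and secondary stages only. Over the 22 UBE2 genes detected on a captured array the median difference was 0.02, with 11 positive and 11 negative.

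**Figure D2:**
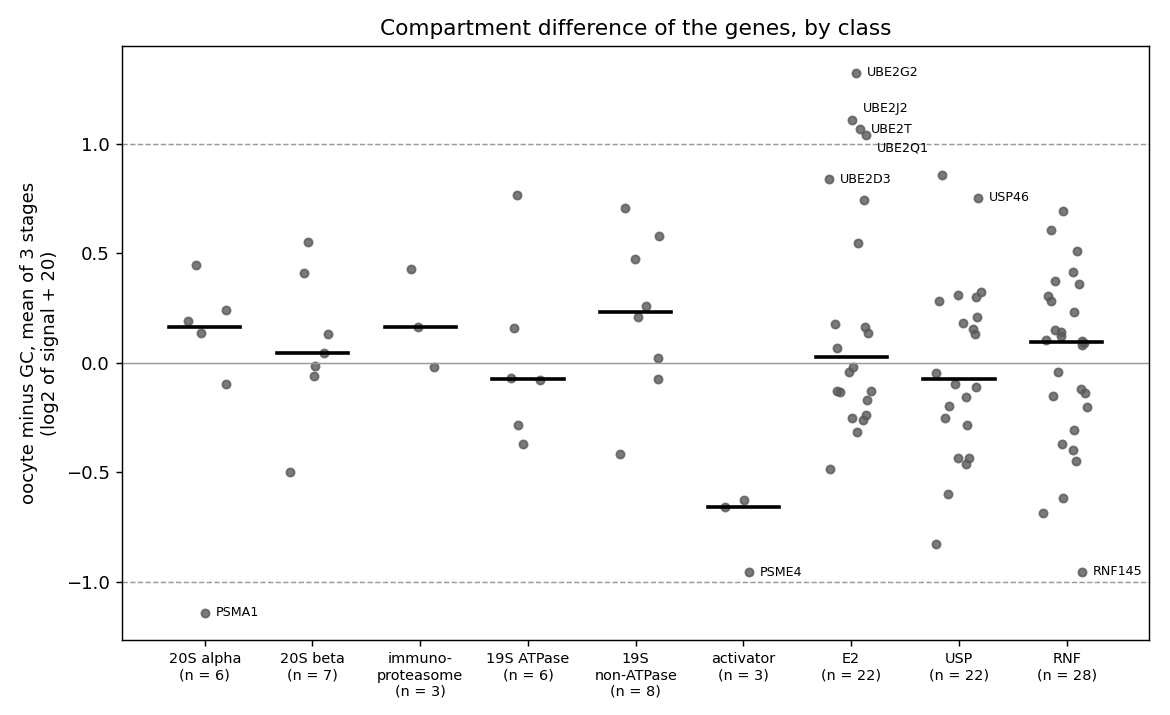
Oocyte minus GC, as the mean over the 3 stages in log2 of signal plus 20, of 105 of the 109 genes detected on a captured array, by class (the inhibitor, PSMG1, PSMG2 and PSME3IP1 are left out). Points are genes, black bars medians and dashed lines 1 log2 unit, with the 4 UBE2 genes above 1, PSMA1 below -1 and the 3 activators all below 0.

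Among the ubiquitin-specific proteases the median of oocyte minus GC over 22 genes was -0.07, and none of them reached 1 log2 unit in either direction. USP46, which acts on glutamate receptors in the nervous system, had 1019, 1055 and 365 in oocytes, against 478, 502 and 325 in GC (0.75 ± 0.34), and PDO and PMO lay above the other 4 arrays. USP14, which is bound to the 19S particle and trims chains there, had 809.9, 562 and 439 in oocytes, against 537, 432 and 452 in GC (0.30 ± 0.31). USP2 was detected on no captured array. USP7, USP9X and RNF114 are not analysed here.

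Of the RING finger genes, RNF145, a ligase of the endoplasmic reticulum membrane with a part in sterol metabolism, had 141, 176 and 213 in oocytes, against 486, 192 and 479.5 in GC. PMG lay among the oocyte arrays, and the difference was -0.95 ± 0.38 (limma adjusted p = 0.428), or -0.61 without the primordial stage. RNF19B differed by -0.68 ± 0.37, but by -0.28 without the primary stage, and RNF44 by -0.62 ± 0.34, but by -0.30 without the primordial stage. On the oocyte side stood RNF4, a ligase that recognises SUMO chains, with 198, 208 and 195 in oocytes, against 113, 169.6 and 126 in GC and no overlap (0.51 ± 0.31). RNF216 had 58.8, 78.1 and 98.0 in oocytes and was not well above background on any GC array, which makes it at least 1.29-fold higher in oocytes when the limits of the GC arrays take the place of lower signals (limma adjusted p = 0.454). RNF7, a RING subunit of cullin ligases, differed by -0.40 ± 0.31.

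None of these differences passed the test. In limma 0 of the 109 genes tested, and 0 of all 11642 probe sets (0%), had an adjusted p under 0.05 between oocytes and GC, and the smallest adjusted p was 0.406. An unadjusted p under 0.05 was found for 10 of the 109 genes (9.17%), against 1295 of the 11642 probe sets (11.1%). By the size of the difference, 4 of the 109 genes (UBE2G2, UBE2J2, UBE2T and UBE2Q1) were at least 2-fold higher in oocytes with one sign at all 3 stages, which is 3.67%, against 2.43% of all genes detected. At least 2-fold lower were 2 (PSMA1 and PSME3IP1), or 1.83%, against 2.71% of all genes. With one sign at all stages and any size, 22 of the 109 were higher in oocytes (20.2%, against 19.9% of all genes) and 20 lower (18.3%, against 16.55%). The median of all 109 genes was 0.07, against 0.05 over all genes. These counts also take in signals below the limit on single arrays. How many of all genes had oocyte and GC arrays without overlap was not counted.

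**Figure D3:**
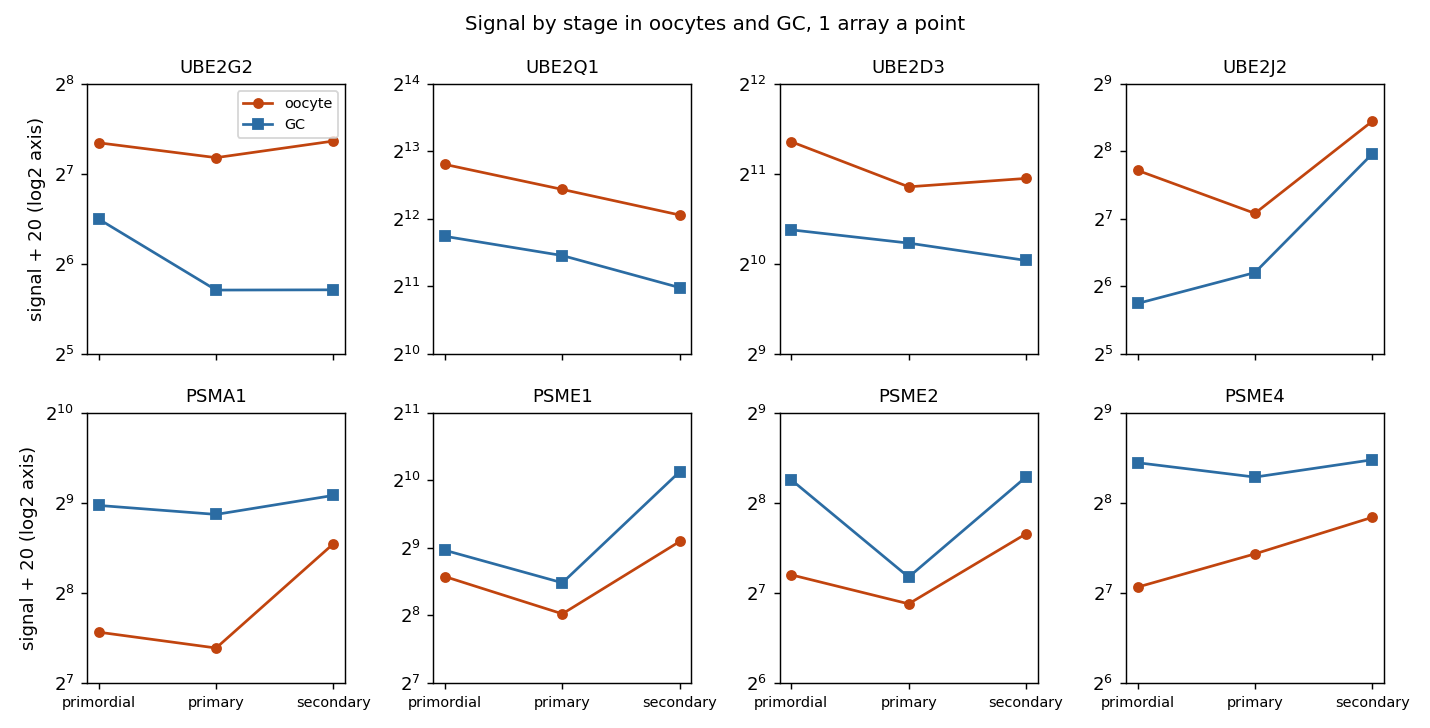
Signal plus 20 at the primordial, primary and secondary stages in oocytes (red circles) and GC (blue squares) for 8 of the genes, each panel with its own log2 axis. Each point is 1 array, and the oocyte line runs above the GC line at each stage in the UBE2 panels and below it in the panels of PSMA1, PSME1, PSME2 and PSME4.

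The stages were compared as secondary minus primordial within each compartment and averaged. Most genes of the 20S core had lower signals at the secondary stage, though no difference passed the test. The median over its 13 genes was -0.38, against 0.04 over all genes, and 9 of 13 were negative, against 2957 of 6284 over all genes. In oocytes the median was -0.51, against 0.07 over all genes, and in GC -0.08, against 0.004. PSMB7 had 2423, 1553 and 549 on PDO, PMO and SECO and 1269, 1194 and 577 on PDG, PMG and SECG, and both secondary arrays lay below the others (-1.61 ± 0.41, limma adjusted p = 0.268). PSMB1 had 1767, 842 and 306 in oocytes, against 982, 632 and 568 in GC by stage, so that the signal was lower at each later stage in both compartments (-1.61 ± 0.49, adjusted p = 0.321, limma). The difference of PSMB2, -0.67 ± 0.59, came from oocytes (-1.50), while in GC it was 0.15. PSMA1 went the other way, with 0.98 in oocytes and 0.11 in GC. SECO, on which these values for oocytes rest, also had lower oocyte markers than PDO (a summed signal of 3225 on SECO, against 8197 on PDO) and the raised red blood cell markers given above. Between the GC arrays, the summed signal of stroma markers was 12701 on SECG, against 47110 on PDG, that of 7 endothelium markers 516 on SECG, against 2958 on PDG, and that of GC markers 2337 on SECG, against 419 on PDG. The part of these markers in the stage differences was not tested.

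PSMD4, the 19S subunit that binds ubiquitin chains, was higher at the secondary stage. It had 723, 269 and 2726 on PDO, PMO and SECO and 288, 342 and 1193 on PDG, PMG and SECG, both secondary arrays lay above the other 4, and the difference was 1.89 in oocytes and 1.98 in GC (1.93 ± 0.49, limma adjusted p = 0.268). A further probe set of PSMD4 gave 2.21. PSMD6 (-0.79 ± 0.51) was not well above background on SECO, with 51.1 against 189 on PDO, while SECG had 142 against 145 on PDG. Averaged over the compartments, the 6 ATPases had small positive values, between 0.02 and 0.41, but only 2 of them were positive in both compartments. A further probe set of PSMC2 gave -0.08. PSMB10, an immunoproteasome subunit, was not well above background at the primordial stage and had 113 on SECO and 96.0 on SECG, at least 1.81-fold more than the limits of PDO and PDG (adjusted p = 0.25, limma). The activator PSME1 was higher at the secondary stage in both compartments (0.84 ± 0.39), with 0.52 in oocytes and 1.16 in GC. PSME4 (0.40) and PSME2 (0.24) had smaller averages, which came from oocytes (0.77 and 0.46), while in GC both differed by 0.03.

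Among the conjugating enzymes and proteases, UBE2J2 was higher at the secondary stage by 1.47 ± 0.46, with 0.73 in oocytes. Of the GC arrays it was detected on SECG alone, so the GC part of this value was measured against a signal below the limit of PDG. USP22, the protease of the SAGA complex that acts on histones, had 93.7, 123 and 216 in oocytes, against 74.0, 141 and 172 in GC by stage and was higher at each later stage in both (1.04 ± 0.38). USP42 (0.87) and USP11 (0.82) were on the same side. USP16, which removes ubiquitin from histone H2A, had 3758, 1381 and 576 in oocytes, against 2302, 2403 and 1363 in GC. It was lower at the secondary stage in both, with differences of -2.67 in oocytes and -0.75 in GC (-1.71 ± 0.52, limma adjusted p = 0.321). USP46 differed by -0.98 ± 0.41, while a dimmer probe set, detected on 2 of the 6 arrays, gave 0.42.

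Of the RING finger genes, RNF187 had 346, 389.6 and 670.5 in oocytes, against 262, 198 and 918 in GC, and both secondary arrays lay above the other 4 (1.33 ± 0.44, limma adjusted p = 0.352). RNF11 was higher at the secondary stage by 0.91 ± 0.40, and RNF34 differed by -0.78 ± 0.43, with -1.36 in oocytes and -0.21 in GC, while its dimmer probe set, also detected on 2 arrays, gave 0.44. RNF19B was detected on PDO, PDG and PMG (64.1, 68.1 and 89.5) and not well above background at the secondary stage, at least 1.1-fold lower there. PSME3IP1 had -1.21 ± 0.46.

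By stage, 0 of the 109 genes and 0 of the 11642 probe sets (0%) had an adjusted p under 0.05 in limma. The smallest among the genes was 0.25 (PSMB10), and 12 of the 109 (11%) had an unadjusted p under 0.05, against 1325 of the probe sets (11.4%). At least 2-fold higher at the secondary stage with one sign in both compartments were 5 of the 109 (PSMB10, PSMD4, UBE2J2, USP22 and RNF187), or 4.59%, against 7.46% of all genes. At least 2-fold lower were 6 (PSMB1, PSMB7, PSME3IP1, USP16, USP18 and RNF19B), or 5.5%, against 5.82%. USP18 had 3.53 on SECO and 4.23 on SECG, against 29.2 on PDO and 49.1 on PDG, and was detected on PDG alone. Of the 75 genes detected on all 6 arrays, 24 had stage differences of opposite sign in oocytes and GC, but in 0 of them did both reach 2-fold.

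**Figure D4:**
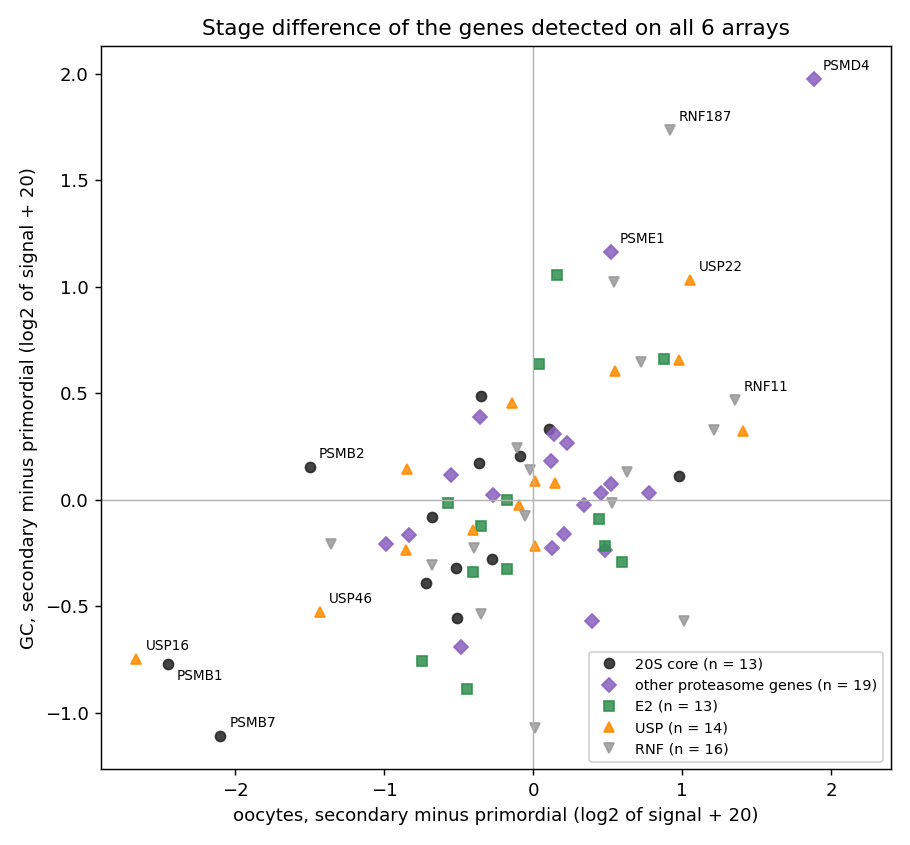
Secondary minus primordial in oocytes (horizontal axis) and in GC (vertical axis), in log2 of signal plus 20, for the 75 genes detected on all 6 captured arrays. Each point is 1 gene, with the 20S core in black circles, and PSMB1, PSMB7 and USP16 lie at the lower left and PSMD4 and RNF187 at the upper right.

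Other probe sets often gave another direction. Of the 131 genes, 36 had more than 1 probe set, and in 15 of them the 2 brightest were each detected on a captured array. Both gave the same sign of oocyte minus GC in 9 of 15. For secondary minus primordial it was 5 of 15, so the stage directions were not borne out in most of them. PSMC2 (-0.37 and -0.42), PSMC6 (-0.29 and -0.50) and PSMB2 (0.55 and 0.36) had like differences in both. UBE2A (0.74 and -0.50) and USP46 (0.75 and -0.43) had opposite ones, with their dimmer probe set detected on 2 of the 6 arrays.

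Of 69 further genes of the ubiquitin pathway, 47 had a probe set and 38 were detected on a captured array. In limma 0 of the 38 had an adjusted p under 0.05 in either comparison. By the 2-fold rule, 1 was higher in oocytes (CUL2, a scaffold of ubiquitin ligases), 0 were lower, 4 were higher at the secondary stage and 0 were lower, where the shares over all genes were 2.43%, 2.71%, 7.46% and 5.82% in the same order. CUL2 had 64.0, 39.5 and 79.5 in oocytes, against 22.5, 17.6 and 14.4 in GC. It was detected on PDO and SECO, but not on PMO, where the limit was 74.2, and on no GC array. NAE1, a subunit of the E1 of NEDD8, had 3968, 4253 and 2954 on PDO, PMO and SECO, against 2179, 2283 and 1418 on PDG, PMG and SECG, without overlap (0.93 ± 0.30). UCHL1, a ubiquitin hydrolase known in neurons and germ cells, had 2664, 2612 and 1844 in oocytes, against 1368, 1519 and 1350.4 in GC, also without overlap (0.72 ± 0.31). POMP, which assembles the 20S core, differed by 0.49 ± 0.32. NFE2L1, the factor that switches on proteasome genes, had 438, 459 and 513 in oocytes, against 555, 689 and 918 in GC (-0.57 ± 0.31). The 4 genes on the secondary side were UBA1, the main E1 of ubiquitin (1.11, not detected on PDG), SUMO3 (1.09), CUL1 (1.64, not detected on PDO) and BRCC3, which was not well above background on PDO and PDG and had 117 on SECO and 108 on SECG. The median of the 38 genes was 0.30 for oocyte minus GC and 0.06 for secondary minus primordial. The choice of the genes named from this list was made with their values in view.

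The captured cells were set against the whole ovine ovary labelled in the same way (P3), which is a single array of another age, so the difference was not tested. At least 2-fold higher on average, with all 6 captured arrays above the ovary, were 8 of 112 genes (7.14%), against 6.09% of all genes, and at least 2-fold lower 8 (7.14%), against 11.6%. PSMA7 lay above the ovary on each captured array (16705 to 36641 in captured cells, against 11320.5 in the ovary), by 1.10 on average. USP14 was higher in the captured cells by 1.14, with 227 in the ovary. PSMC6 (1.10) and PSMD10 (1.35) were also higher in the captured cells. Not all of these differences held against the ovine ovary under P2 and P1. There PSMA7 had 6112 and 3187, still below each captured array. USP14 had 534 and 589, within its captured range of 432 to 810. PSMC6 had 539.5 and 272, against 387 to 601 in captured cells. PSMD10 had 77.7 and 368, the latter above each captured array. PSMC3 had 470.1, 296 and 664 in oocytes, against 474, 347 and 399 in GC, against 1332 in the ovary (-1.59). PSMD2, a scaffold of the 19S base, had 447, 443 and 490.4 in oocytes, against 457, 348 and 388 in GC, against 1159 (-1.40). UBE2J2 differed by -2.25, USP19 by -1.35, USP5, which takes free ubiquitin chains apart, by -1.21 and USP20 by -0.97. USP42 and RNF170 were not well above background in the P3 ovary and at least 2.23-fold and 1.54-fold higher in the captured cells. Under P2 and P1 the ovary had 161.5 and 189.5 for USP42, within its captured range, and 50.6 and 38.9 for RNF170. The 20S core had a median of 0.63, against 0.01 over all genes, and 11 of its 13 genes were higher, against 3263 of 6502 over all genes.

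Many of these signals differed between the labelling protocols on ovine fetal ovary RNA, with 1 array for each protocol and no test. The P3 array is the one the captured cells were set against, and the P1 array serves all the comparisons that follow. Under P3 against P1, 14 of 117 genes were at least 2-fold higher (12%), against 16.8% of all genes, and 24 lower (20.5%), against 19%. Under P2 against P1, 11 of 118 were higher (9.32%, against 13.8% of all genes) and 24 lower (20.3%, against 16.4%). PSMA7 had 6112 under P2, 11320.5 under P3 and 3187 under P1. PSMD14 had 2088 under P2, 2229 under P3 and 718 under P1, and USP16 1298, 1627 and 492 in the same order. P3 minus P1 was 2.20 for RNF113A, a zinc finger protein of the spliceosome, 1.93 for UBE2F and 1.41 for RNF34. On the other side, PSMD10 had 77.7 under P2, 43.6 under P3 and 368 under P1, and UBE2B, a further relative of yeast Rad6, 354, 311 and 1154. RNF11 (-2.06) and RNF167 (-1.96) were lower under P3. USP2, RNF126 and RNF19B were not well above background under P3 and at least 3.52-fold, 3.33-fold and 3.36-fold lower there than under P1. USP2 had 199 under P1 and 1.20 to 6.90 on the captured arrays. The 20S core had a median P3 minus P1 of 0.30, with 9 of 13 positive, against 3199 of 6539 over all genes. The 117 genes had a median of -0.35, against -0.03 over all genes.

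**Figure D5:**
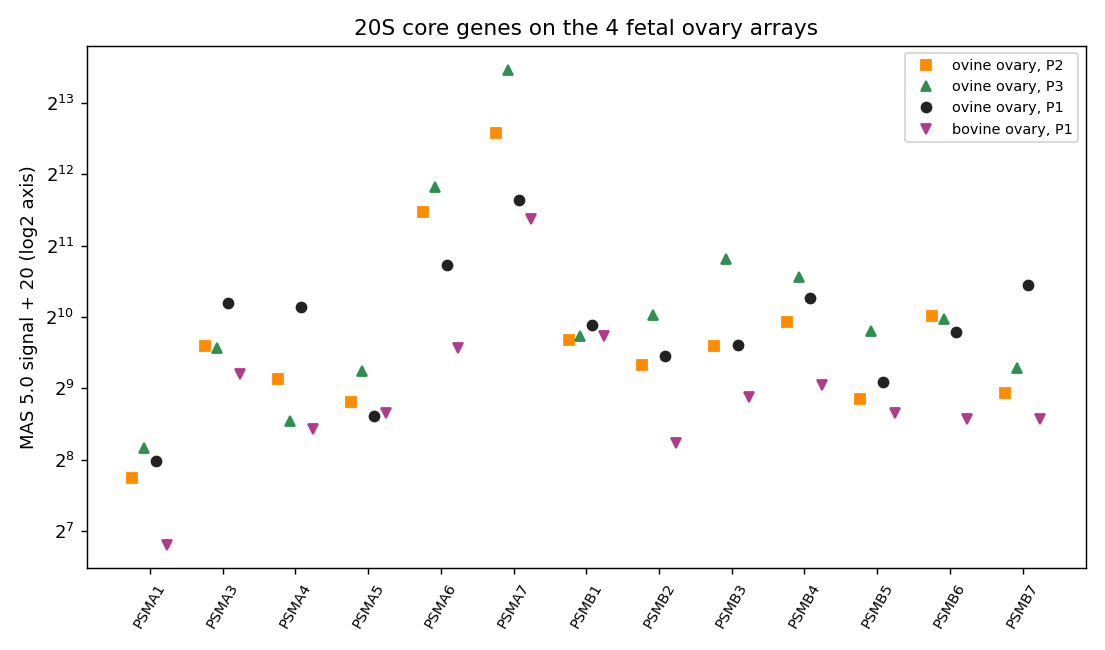
Signal plus 20 of the 13 genes of the 20S core on the 4 fetal ovary arrays, on a log2 axis, with ovine P2 (squares), ovine P3 (triangles), ovine P1 (circles) and bovine P1 (inverted triangles) for each gene. PSMA6 and PSMA7 lie higher under P2 and P3 than under P1, PSMA3, PSMA4 and PSMB7 lower, and the bovine signal lies below the ovine P1 signal for 12 of the 13 genes.

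Ovine and bovine ovary were compared under P1, with 1 array each. Of 123 genes, 27 were at least 2-fold higher in the ovine ovary (22%), against 13.3% of all genes, and 18 lower (14.6%), against 17.7%. The probes were designed on bovine sequence, and the fetal ages differ, so species, probe fit and age cannot be told apart. The 20S core had a median ovine minus bovine of 1.16, against 0.05 over all genes. Higher in the ovine ovary were 12 of its 13 genes, against 3708 of 7097 over all genes. PSMB7 had 1381 in ovine and 362 in bovine ovary, PSMA4 1112 and 324, and PSMA6 1673 and 736. Of the immunoproteasome, PSMB8 had 692 in ovine and 126 in bovine ovary and PSMB9 297 and 85.4, while PSMB10 was on the bovine side (-0.34). UBE2J2 (1.65) and PSMD10 (1.64) were higher in ovine ovary. UBE2E1 was not well above background in ovine ovary (30.7) and had 775 in bovine ovary, at least 15.3-fold lower in the ovine. PSMD5 (26.0 in ovine and 327 in bovine ovary) was at least 6.65-fold lower. RNF4 (-2.47), UBE2V1 (-1.89), USP22 (-1.70), PSME3IP1 (-1.63), RNF20 (-1.49) and USP28 (-1.39) were also lower in the ovine ovary. RNF20 is the ligase that marks histone H2B together with UBE2A or UBE2B.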

How the data were processed

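The deposited values are MAS 5.0 signal intensities made by the authors (GCOS and MAS5 in the submitters' notes, versions not given in the sources used here), on a linear scale, with each array scaled to a trimmed mean of 100. Control probe sets were left out. Gene symbols came from the platform's annotation: 13292 probe sets had 1 symbol, 86 several and 10638 none, and only those with 1 were named. The members and gene lists were chosen with earlier results of these data known.

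For each array the study lists a share of present calls, and that share of its probe sets, taken from the brightest down, was treated as detected. Log2 of the deposited intensity plus 20 was fitted in limma 3.58.1 (R 4.3.3) with stage and compartment as terms for the 11642 probe sets that reached detection on 1 captured array or more, with Benjamini-Hochberg adjustment. The limma fit was run on simulated data with the same noise for every probe set. The planted differences were larger than the oocyte minus GC differences described here. That run cannot show how well differences of the size seen here are found. The number of arrays limits the precision. Where all arrays of a group were below their limits, the limits took the place of lower signals ("at least"). The ovary arrays were compared without a test. A gene counted as 2-fold different when the difference reached 1 log2 unit with one sign at all stages, in both compartments or on all captured arrays.

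Genes were named when detected on at least 3 captured arrays and among the 10 largest compartment differences or 8 largest stage differences in a direction with one sign, the 8 brightest, or the 6 largest of a single-array comparison in a direction. The proteasome genes and a short list of enzymes (such as UBE2N, UBE2S, USP2 and RNF7) were also named. Other named genes were chosen after their values were seen. Alternatives changed the added constant, a floor, the scaling, the detection filter, the probe set rule, the fold minimum, the model, the variance prior and the stages used.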

Additional observations from a re-analysis of the deposited data

How the results depend on the processing

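Over all 11642 probe sets, the limma count of 0 between oocytes and GC was 10 with an intensity trend in the variance, and the count of 0 between stages was 67 with that trend and 37 with 50 added before log2. None of those probe sets belonged to the 131 proteasome and ubiquitin genes. With the mean of a gene's probe sets, oocyte minus GC was 0.60 for UBE2G2, against 1.32 with the brighter probe set, which ended its 2-fold call, and 0.16 for USP46, against 0.75. Secondary minus primordial was -0.28 for USP46, against -0.98, -0.17 for RNF34, against -0.78, and 0.52 for USP42, against 0.87. For oocyte minus GC, the counts of 4 genes higher and 2 lower were 2 and 1 with 50 added, 9 and 10 at 1.5-fold, and 0 and 0 at 3-fold. The count of lower genes was 7 with 1 added, 4 with a floor at 20, and 1 with a signal of at least 100. Leaving out each stage gave 3 to 8 higher and 3 to 4 lower. By stage, the counts of 5 higher and 6 lower were 19 and 16 at 1.5-fold and 1 and 3 at 3-fold. The count of lower genes was 3 with 50 added and 3 with a signal of at least 100. For captured cells against the P3 ovary, the 8 higher and 8 lower were 4 and 5 with 50 added and 0 and 2 at 3-fold, and the mean of a gene's probe sets gave 4 higher. At 3-fold the counts were 5 higher and 15 lower for P3 minus P1, 3 and 12 for P2 minus P1, and 9 and 8 for ovine minus bovine. With the mean of the probe sets, P2 minus P1 gave 6 higher. Quantile normalization moved the median of P3 minus P1 over all genes to 0.12, against -0.03 as deposited, and that of the genes described here to -0.30, against -0.35. The stage term of the fit already pairs the oocyte and GC arrays of a stage, and without it 0 probe sets were called between oocytes and GC. With 1 array for each stage and compartment, differences between animals could not be estimated.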
